A study of Oryza sativa with 44 samples.

Results

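Rice seedlings of the line osythdf3c were set directly against those of the line osythdf3b, by the line names in the labels: 3 libraries of each, 6 of the 44 in the series. The wild type is not part of this contrast and appears only beside it. RNA was sequenced from 2-week-old seedlings (Oryza sativa) grown in nutrient solution, and every group compared here shared that age and growth. The series holds 15 groups. Of these, 10 are CRISPR knockouts, both lines of this contrast included. Another 2 are knockdowns by RNAi, 1 is an overexpression line and 2 are wild types. The series was set up to compare gene expression between the groups. Its libraries labelled NIP number 33 and fall into 11 groups: 10 lines, osythdf3c and osythdf3b among them, and the NIP wild type. The other 4 groups are labelled DJ.

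The names of both lines share the number 3 and differ in the last letter, and the labels do not say what the letters stand for. How many independent plants or lines stand behind each name is not given, nor is the growth batch. Targeted gene, background and growth of the plants cannot be told apart in this contrast. In bulk RNA, fewer cells of a type and less RNA per cell cannot be told apart either. The organ is not labelled. Replicates are biological in the wording of the series, with no word on separate cultures, and p-values cover only the spread between these libraries.

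YTH proteins are readers of N6-methyladenosine, a methyl mark that writer complexes place on adenosines of messenger RNA and other transcripts. Members of the YTHDF class act mainly in the cytoplasm, where readers of this kind are known to influence how long a marked messenger lasts and how well it is translated. In Arabidopsis the related ECT proteins are known for roles in leaf and trichome growth. The files list features by locus ID and pair no ID with a gene name, so the transcripts of the YTH genes, the marker genes of root and shoot and other named pathways were not analysed here. Features are therefore described by locus, level, length, position and state in the other groups, and a role is given for the single locus that a reference table names.

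Library totals were 18025697 to 19403989 counts in osythdf3c and 19815112 to 24099581 in osythdf3b, within the 13541543 to 24099581 of the whole series. Replicates of a line lay close together. CPM are counts scaled to the library total. For the spread between replicates they were also scaled by TMM, a normalization described further down, and 0.5 was added. Over 10282 features that reached 10 on this scale in each of the 33 NIP-labelled libraries, the median standard deviation between replicates on the log2 scale was 0.05 in osythdf3c and 0.04 in osythdf3b. Features that were low in any of these libraries were left out. The median distance between the line means at the same features was 0.56. The labelled background of osythdf3c was also set beside the state of some features in the other groups, as a description. The label of osythdf3c is NIP. A set of 456 features was on in osythdf3c and off in osythdf3b, as defined further down. Of these, 332 were on in the DJ wild type and 17 in the NIP wild type. Among the DJ-labelled lines, osythdf2a had 335 of them on, osythdf1a 44 and osythdf3a 55. The other NIP-labelled lines ran from 16 in osythdf5c to 330 in osythdf1b. The 456 were chosen as off in osythdf3b, the NIP-labelled line with the fewest calls against the NIP wild type. A low count in the NIP wild type thus follows in part from that choice. Over all features, 22412 were on in the DJ wild type and 21025 in the NIP wild type. The lines had 22389 in osythdf3c and 20455 in osythdf3b. The part of background in the contrast was not tested.

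The 2 lines differed at most of the features that could be tested. Of 27584 features, 22122 (80.2%) passed an adjusted p under 0.05 (quasi-likelihood test of edgeR, p adjusted over all features by Benjamini and Hochberg). In osythdf3c 11594 of them (42.0%) were higher and 10528 (38.2%) were lower than in osythdf3b. A change of at least 2-fold was estimated for 6763 features (24.5%) that were higher and for 4990 (18.1%) that were lower. The median size of the difference over all tested features was 1.80-fold. In CPM scaled by library totals, unlike the TMM scaling of the test, the 3 libraries of one line did not overlap the 3 of the other at 22852 features (82.8%).

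Larger differences were more often rises in osythdf3c. Among called features, 3450 were at least 4-fold higher and 1895 at least 4-fold lower in osythdf3c. At 16-fold or more the counts were 1317 higher and 354 lower, and at 100-fold or more they were 285 higher and 83 lower. Fitted folds of that size often rest on a line with few or no counts, where they depend on the count added by the fit.

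The split by direction depended on the scaling. TMM normalization, which assumes that most features do not differ, gave 52.4% of the called features as higher in osythdf3c. Scaling by library totals alone gave 67.2%, with 15069 higher and 7353 lower, of which 8884 and 3466 at least 2-fold, and limma on log2(FPKM + 1) gave 67.2% as well. The median log2 fold change over all tested features was 0.06 with TMM and 0.42 with library totals, a shift of 0.36. The TMM factors were 1.13 to 1.14 in osythdf3c and 0.884 to 0.891 in osythdf3b.

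The loci with the largest differences were present in all libraries of one line and at or near 0 in the other. Among called features with at least 5 CPM in the higher line and libraries that did not overlap, 7976 were higher and 6458 lower in osythdf3c, and the 8 with the largest fitted fold each way were examined. The 8 that were higher averaged 10.6 to 24.5 CPM in osythdf3c and had no counts in any osythdf3b library. The 8 that were lower averaged at most 0.511 CPM in osythdf3c, where 3 of them had no counts, and 7.40 to 589 CPM in osythdf3b. The first 2 with a locus ID in each direction follow.

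LOC_Os11g20160 (chromosome 11, a feature of 1597 bases) had 23.9, 23.4 and 26.2 CPM in the osythdf3c libraries and no counts in the 3 osythdf3b libraries. Its mean in osythdf3c was 24.5 ± 1.48 CPM (SD, n = 3), or 15.3 FPKM, the count scaled by depth and by length. The locus was at least 531-fold higher in osythdf3c, with 3 counts over the osythdf3b libraries as the floor. On the log2 scale the fitted fold was 11.70 (SE 0.41, adjusted p = 1.1e-33 by edgeR). It was nearly silent in the NIP wild type as well, with 1 count in 3 libraries. The highest mean in any other group was 7.12 CPM in osythdf2a, followed by 4.21 CPM in RNAi-OsYTHDC1A and 2.62 CPM in the DJ wild type, so osythdf3c stood above every other group.

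LOC_Os03g51690 (chromosome 3, 2714 bases) had 16.1, 14.0 and 13.4 CPM in osythdf3c and no counts in osythdf3b. That was at least 313-fold higher in osythdf3c by the same floor, and the fitted log2 fold was 10.94 (SE 0.36, adjusted p = 1.3e-34 by edgeR). Its level per length was lower than that of the locus above, 5.34 FPKM in osythdf3c. Unlike that locus, it was higher elsewhere: 35.3 CPM in RNAi-OsYTHDC1A, 28.9 CPM in the DJ wild type, 24.9 CPM in osythdf1b and 20.3 CPM in osythdf2a. The NIP wild type had 0.057 CPM, and osythdf4c with 2.45 CPM was the single group in between.

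LOC_Os12g13360 (chromosome 12, 714 bases) showed the opposite state. It had no counts in the 3 osythdf3c libraries and 26.8, 28.6 and 26.8 CPM in the osythdf3b libraries, at least 514-fold lower in osythdf3c. Its mean in osythdf3b was 27.4 ± 1.06 CPM (SD, n = 3), or 38.4 FPKM. The fitted log2 fold change was -12.22 (SE 0.28, adjusted p = 1.2e-40 by edgeR). The NIP wild type was at 31.5 CPM and osythdf4c at 30.5 CPM, OE-OsYTHDF1A was at 4.25 CPM, and every other group averaged at most 0.26 CPM.

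LOC_Os06g19095 (chromosome 6, 1236 bases) had a single count in the osythdf3c libraries, all of it in replicate 3, and 38.3, 38.2 and 38.0 CPM in the osythdf3b libraries. The level in osythdf3b was 30.9 FPKM. On the CPM scale osythdf3b was higher by a ratio of 2152, with a 95% counting interval of 386 to 85051. The fitted log2 fold change was -10.93 (SE 0.20, adjusted p = 1.2e-49 by edgeR), and it was -12.69 without replicate 3 of osythdf3c. The NIP wild type had more of it than osythdf3b, 101 CPM, and osythdf4c had 69.0 CPM, while OE-OsYTHDF1A had 3.34 CPM and every other group at most 0.52 CPM.

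Against the NIP wild type, in tests that share the libraries above, these 4 loci fell into 2 kinds. LOC_Os11g20160 and LOC_Os03g51690 had log2 fold changes of 9.95 and 7.55 in osythdf3c against NIP. In osythdf3b against NIP they had -1.75 (SE 1.69) and -3.39, neither past the threshold (adjusted p = 0.44 and 0.059 by edgeR). LOC_Os12g13360 and LOC_Os06g19095 had -12.35 and -12.26 in osythdf3c against NIP. In osythdf3b against NIP the first had -0.13 (adjusted p = 0.19 by edgeR) and the second had -1.33 (adjusted p = 5.2e-30 by edgeR).

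**Figure D1:**
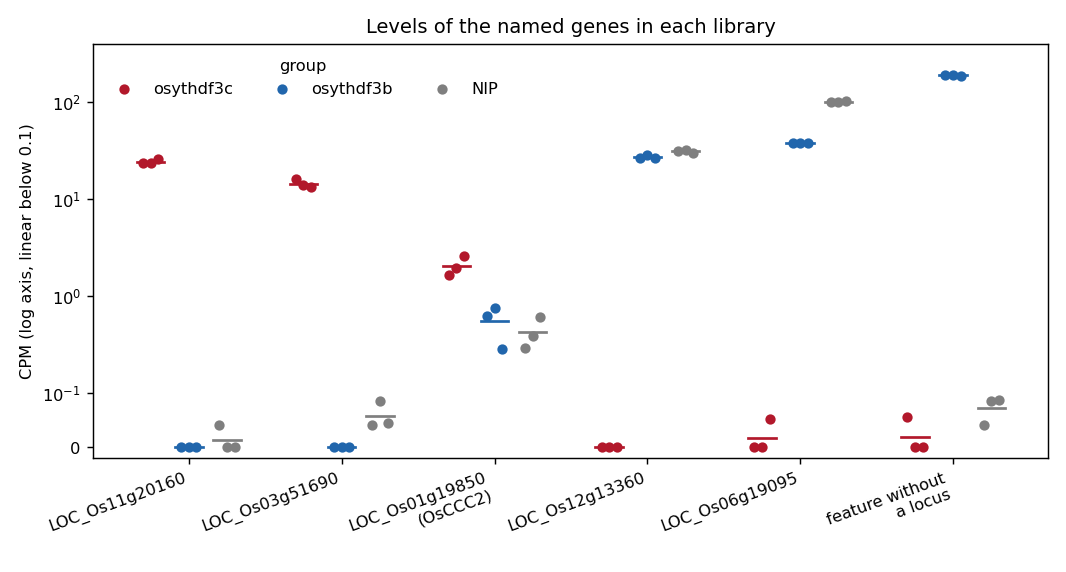
Level of the 4 loci, of OsCCC2 and of the feature without a locus that fell most, in CPM on a log axis that is linear below 0.1 CPM. Each point is a library of osythdf3c, osythdf3b or the NIP wild type and each line a group mean. For LOC_Os11g20160 and LOC_Os03g51690 osythdf3c stands above osythdf3b at 0, and for LOC_Os12g13360 and LOC_Os06g19095 it lies at or near 0.

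The 8 features each way were also read in the other groups. Of the 8 with the largest rises, none averaged 1 CPM in the NIP wild type, and 6 reached it in each of the DJ wild type, osythdf1b, osythdf2a and RNAi-OsYTHDC1A. Of the 8 with the largest falls, 7 reached 1 CPM in the NIP wild type, 7 in osythdf4c and 5 in OE-OsYTHDF1A. None of those 8 reached it in the DJ wild type, and at most 2 did in each remaining line other than osythdf3b.

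The feature with the largest fall has no locus ID and is 1003 bases long. It had 0.0555, 0 and 0 CPM in osythdf3c, which was a single count, and 191.7, 192.4 and 186.8 CPM in osythdf3b. The level in osythdf3b was higher by a ratio of 10737, with a 95% counting interval of 1927 to 424130. Its fitted log2 fold change was -13.25 (SE 0.16, adjusted p = 3.6e-57 by edgeR). This feature was abundant in osythdf3b and in no other group: the NIP wild type had 0.072 CPM, and the highest mean elsewhere was 0.158 CPM in osythdf3a. Another feature with no locus, of 1907 bases, had 16.0, 16.9 and 16.5 CPM in osythdf3c and no counts in osythdf3b or in the NIP wild type. It was at least 357-fold higher in osythdf3c, and osythdf1a reached 5.54 CPM.

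The single locus with a name is OsCCC2 (LOC_Os01g19850, chromosome 1, 2391 bases). The name stands for a cation chloride cotransporter, a class of membrane proteins that carry chloride together with potassium or sodium ions across a membrane and in rice are known for roles in ion balance. OsCCC2 had 1.66, 1.95 and 2.58 CPM in osythdf3c, against 0.622, 0.757 and 0.284 CPM in osythdf3b. The libraries did not overlap, and they rested on 117 counts in osythdf3c and 36 in osythdf3b. The means were 2.06 ± 0.47 CPM in osythdf3c and 0.555 ± 0.24 CPM in osythdf3b (SD, n = 3 each). OsCCC2 was higher in osythdf3c by 1.54 on the log2 scale (SE 0.28, adjusted p = 2.2e-06 by edgeR). Per length both levels were low, 0.863 FPKM in osythdf3c and 0.232 FPKM in osythdf3b.

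In the order of all 15 groups, osythdf3b was the fourth lowest for OsCCC2 and osythdf3c the fourth highest. Below osythdf3b lay the NIP wild type, osythdf1a and osythdf1c, at 0.433 to 0.499 CPM, within the spread of its own libraries. Next to osythdf3c were the DJ wild type at 1.96 CPM and osythdf4c at 2.11 CPM, also within the spread of the osythdf3c libraries. The highest means were 2.72 CPM in osythdf1b and 3.31 CPM in osythdf2a.

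More features were detected in osythdf3c than in osythdf3b. At least 1 CPM was reached by 23080, 23112 and 22935 features in the osythdf3c libraries, against 21049, 21133 and 21035 in the osythdf3b libraries and 21562 to 21619 in the NIP wild type. The lines did not overlap, and the difference of the means was 1970 features (two-sided exact permutation test, p = 0.1, the smallest that 3 against 3 libraries can give). The counts in osythdf3b were concentrated in fewer features. The 10 most abundant features of a library took 2.99% ± 0.054 of its counts in osythdf3c and 6.33% ± 0.089 in osythdf3b (SD, n = 3 each), and the NIP wild type libraries lay between 5.84% and 5.97%. The 100 most abundant took 12.2% in osythdf3c and 21.8% in osythdf3b, and the 1000 most abundant took 37.8% in osythdf3c and 48.3% in osythdf3b. Each of these differences also had p = 0.1 by the exact permutation test.

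The most abundant features were mostly lower in osythdf3c. Of 484 features with a mean above 256 CPM over the 33 NIP-labelled libraries, 467 were called, 129 higher and 338 lower in osythdf3c, and the median log2 fold change was -0.85. Below 1 CPM, 4639 features were tested, 62.9% were called, and 65.7% of those called were higher in osythdf3c, with a median log2 fold change of 0.57. The classes between ran in order: 63.4% of the called features were higher at 1 to 4 CPM, 56.6% at 4 to 16 CPM, 45.4% at 16 to 64 CPM and 36.5% at 64 to 256 CPM. With library totals in place of TMM, the majority turned to higher in the classes of 16 to 64 CPM (64.6%) and 64 to 256 CPM (52.9%). Above 256 CPM 35.2% of the called features were higher with library totals, so most remained lower.

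**Figure D2:**
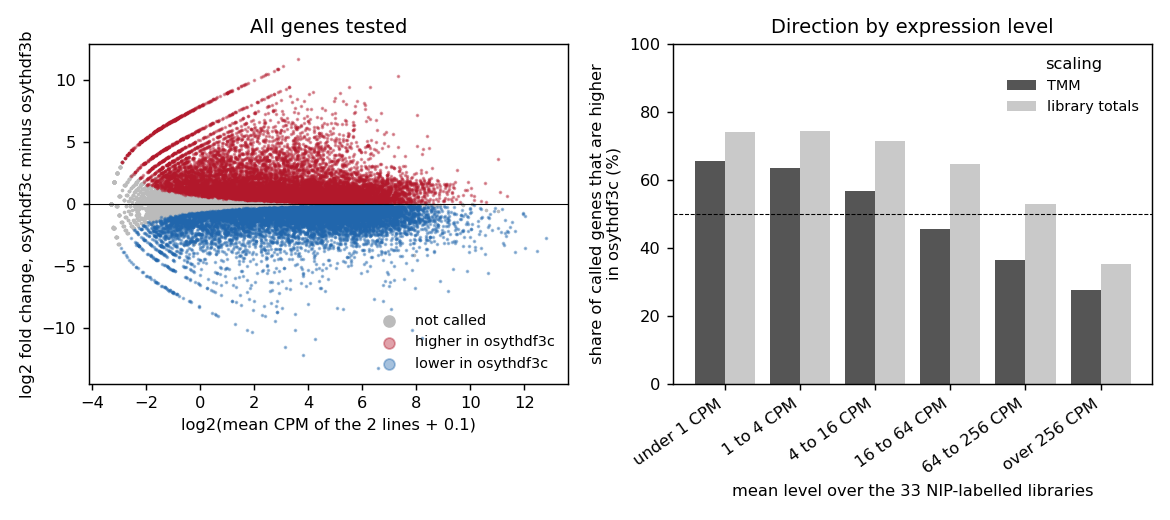
Left, log2 fold change of osythdf3c minus osythdf3b for each tested feature against log2 of the mean CPM of both lines plus 0.1, coloured by call. Right, share of called features that are higher in osythdf3c by class of mean CPM over the 33 NIP-labelled libraries, with TMM and with library totals: with TMM it is 65.7% below 1 CPM and 27.6% above 256 CPM, and the dashed line marks equal numbers.

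The features that were at least 2-fold lower in osythdf3c carried a large part of the RNA of osythdf3b. These 4990 features took 14.6% ± 0.20 of the counts in osythdf3c, 44.5% ± 0.094 in osythdf3b and 40.9% ± 0.12 in the NIP wild type (SD, n = 3 each). The 6763 that were at least 2-fold higher took 25.9% ± 0.12 of the counts in osythdf3c and 5.90% ± 0.0087 in osythdf3b, with 7.55% in the NIP wild type. The contrast chose both classes, so these shares describe its size and test nothing. The class that was lower had a median level of 11.4 CPM over the 33 libraries, and the class that was higher had 3.43 CPM. Their median lengths were close, 1508 bases for the lower and 1628 bases for the higher class, against 1701 bases over all tested features.

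**Figure D3:**
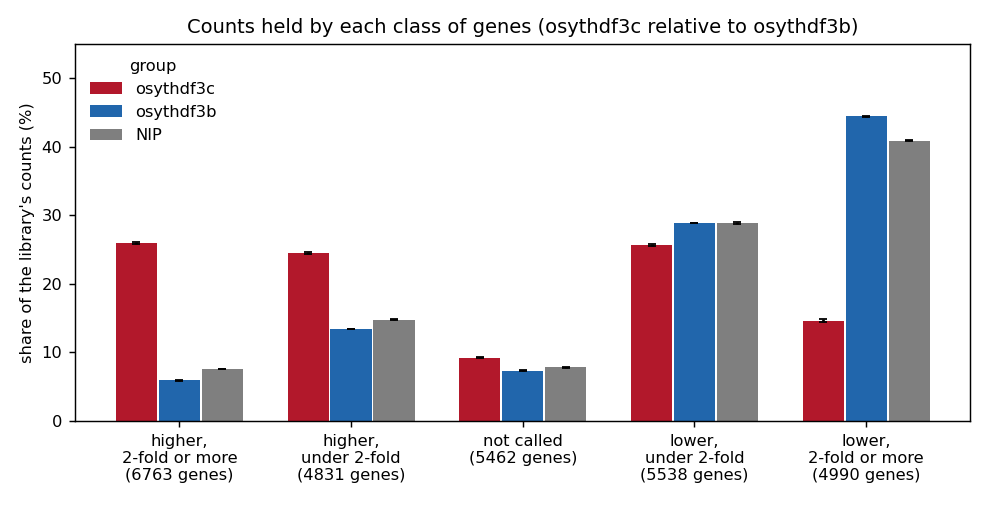
Mean share of a library's counts, in percent, taken by each class of features of the contrast in osythdf3c, osythdf3b and the NIP wild type, with the SD of 3 libraries as error bars. The class at least 2-fold lower takes 14.6% in osythdf3c and 44.5% in osythdf3b.

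A few features accounted for a visible part of these shares. The 8 features with the largest fall in CPM, all with a locus and spread over 5 chromosomes, together took 0.820% ± 0.017 of the counts in osythdf3c and 5.34% ± 0.076 in osythdf3b (SD, n = 3 each). The NIP wild type had 4.69%. Each of them averaged 513 to 2355 CPM in osythdf3c and 4141 to 11989 CPM in osythdf3b, with log2 fold changes of -3.88 to -2.14. The 8 with the largest rise in CPM took 1.88% of the counts in osythdf3c and 0.525% in osythdf3b, with log2 fold changes of 0.67 to 3.67, and the NIP wild type had 0.548%.

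Present and absent features were counted apart from the test. A feature was on in a group with at least 1 CPM in every library and off with at most 3 counts in every library. By this rule 22389 features were on in osythdf3c and 20455 in osythdf3b, and 19581 were on in both. On in osythdf3c and off in osythdf3b were 456 features, and on in osythdf3b and off in osythdf3c were 86. The 456 averaged 1.05 to 90.5 CPM in osythdf3c with a median of 2.88 CPM, and 53 of them reached 10 CPM. The 86 averaged 1.17 to 190 CPM in osythdf3b with a median of 2.97 CPM, and 16 of them reached 10 CPM. Most were thus low, and both counts moved with the limits chosen: with off set at 0 counts they were 88 and 12.

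Most of the 456 were also on in some groups other than NIP. Of them, 335 were on in osythdf2a, 332 in the DJ wild type, 330 in osythdf1b, 304 in RNAi-OsYTHDC1A and 215 in osythdf4c. The next group, osythdf2b, had 69, and the remaining lines had 16 in osythdf5c to 55 in osythdf3a. In the NIP wild type 17 were on, 228 were off and 211 lay between. The 5 groups with the most of the 456 on also had more features on over all features. These were 23548 in osythdf2a, 22412 in the DJ wild type, 22256 in osythdf1b, 22803 in RNAi-OsYTHDC1A and 21853 in osythdf4c. The other groups apart from the 2 lines ran from 20075 in OE-OsYTHDF1A to 21591 in osythdf2b. The part of this in the counts was not tested. A group with 2 libraries, as osythdf2a has, meets either state more easily. On in no other group were 28 of the 456, and the highest of them averaged 4.61 CPM in osythdf3c.

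The 86 features on in osythdf3b had another spread over the groups. In the NIP wild type 57 of them were on, 8 were off and 21 lay between. OE-OsYTHDF1A had 33 on, osythdf4c 32 and osythdf1a 25, while the DJ wild type and RNAi-OsYTHDC1A had 10 each and osythdf1b 9. On in no other group were 12, of which 7 have no locus ID. Of the 86, 21 (24.4%) have no locus ID, against 41 (8.99%) of the 456 and 5.84% of all tested features.

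**Figure D4:**
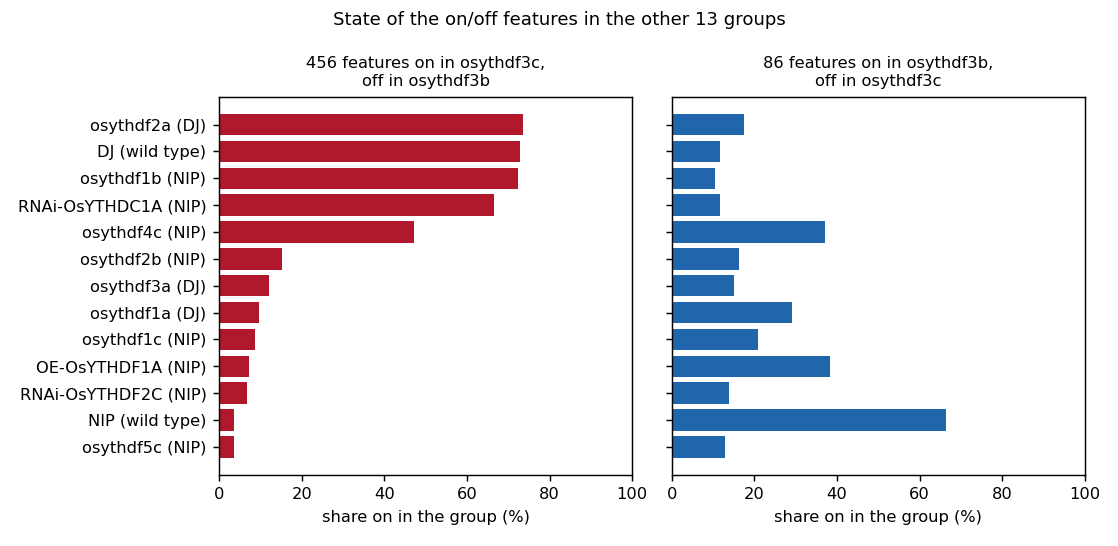
Share, in percent, of the 456 features on in osythdf3c and off in osythdf3b (left) and of the 86 with the opposite state (right) that were on in each other group. The DJ wild type has 332 of the 456 and 10 of the 86 on, and the NIP wild type has 17 of the 456 and 57 of the 86.

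The groups were also placed between the lines at features with larger differences. These were the 5334 features higher and 4117 lower in osythdf3c that were called with at least 2-fold and also differed at least 2-fold on log2(CPM + 0.5), with CPM scaled by TMM over all 44 libraries. For each, the mean of another group was given as a position, 1 at the osythdf3c mean and 0 at the osythdf3b mean. The osythdf1b line had median positions of 0.905 for the higher and 0.715 for the lower features, and the DJ wild type had 0.865 and 0.708. Near them were osythdf2a (0.724 and 0.717) and RNAi-OsYTHDC1A (0.658 and 0.690), and osythdf4c lay near the middle (0.593 and 0.550). The NIP wild type lay near osythdf3b, at 0.129 and 0.099. Near osythdf3b for the higher features were also osythdf1a (0.074), OE-OsYTHDF1A (0.101) and osythdf1c (0.120). The 5334 higher features lay nearer osythdf3c in 85.9% of cases in osythdf1b, 82.4% in the DJ wild type and 9.82% in the NIP wild type. These positions are a description, since the features were chosen for the difference between the 2 ends of the scale.

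**Figure D5:**
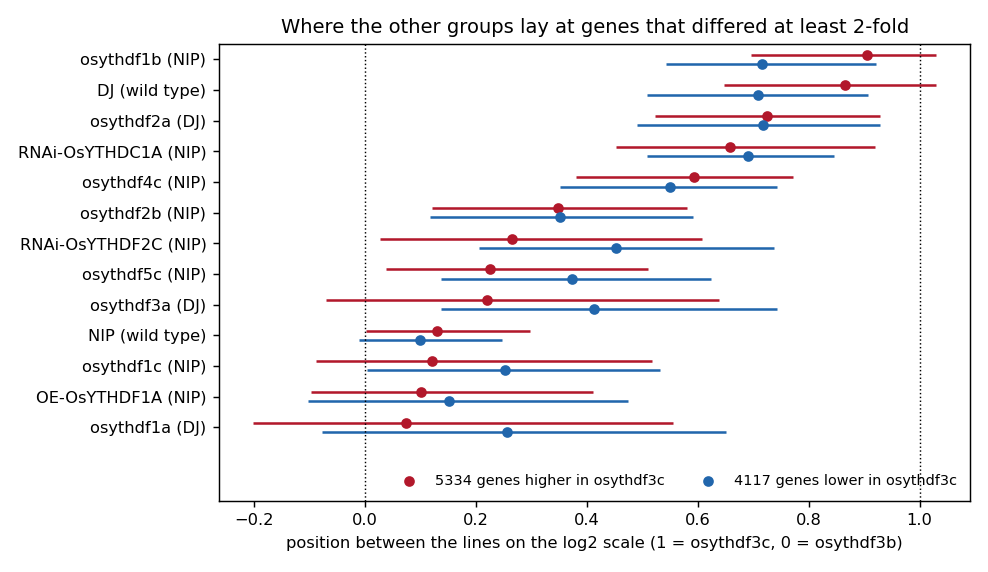
Position of every other group between osythdf3c (1) and osythdf3b (0) on the log2 scale, as the median (point) and quartiles (line) over 5334 features higher and 4117 lower in osythdf3c. For the higher features osythdf1b and the DJ wild type lie nearest 1, for the lower ones osythdf2a (0.717), osythdf1b (0.715) and the DJ wild type (0.708) do, and the NIP wild type lies at 0.129 and 0.099.

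Among the 55 pairs of the 11 NIP-labelled groups, osythdf3c against osythdf3b had the highest number of called features and the highest number called with at least 2-fold, 11753. The median pair had 18903 called features (68.5%) and 7026 with at least 2-fold. The lowest number of calls was 11022 (40.0%), in osythdf3b against the NIP wild type. The line osythdf3c differed from the NIP wild type at 21663 features (78.5%). The NIP-labelled group with the fewest calls against osythdf3c was osythdf1b, with 14856 calls and a median absolute log2 fold change of 0.31. The pairs share libraries, and differences between pairs were not tested.

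The differences were spread over the genome. By the chromosome in the locus ID, the share of tested loci called ran from 77.7% on chromosome 12 to 82.4% on chromosome 3. The share at least 2-fold higher in osythdf3c was largest on chromosome 11, at 27.0%, and the share at least 2-fold lower was largest on chromosome 10, at 19.9%. In 514 windows of 50 consecutive tested loci, between 58% and 94% of loci were called, with a median of 82%. The highest median log2 fold change of a window was 1.21, in the second window of chromosome 10, where 52% of loci were at least 2-fold higher and 10% at least 2-fold lower in osythdf3c. Window 26 of chromosome 9 followed with a median of 1.03, and also had 52% higher and 12% lower. The third window of chromosome 6 held 7 loci on in osythdf3c and off in osythdf3b, the most of any window. The lowest median was -0.65, in the second window of chromosome 9, where 36% of loci were at least 2-fold lower and 2% at least 2-fold higher in osythdf3c. The window after it had 38% lower and 16% higher, and together they held 7 loci on in osythdf3b and off in osythdf3c. Window 23 of chromosome 10 had the largest share of lower loci, 46%, with 16% higher. Neighbours among the loci on in 1 line and off in the other were counted in the order of all listed loci. Of the 415 with a locus ID that were on in osythdf3c and off in osythdf3b, 18 (4.34%) lay next to another of their kind, against 1.46% of the other listed loci that lay next to one of them. Of the 65 with the opposite state 7 (10.8%) did, against 0.214% of the other listed loci, and the longest run was 3 loci. All features on in 1 line and off in the other passed the filter of the test, while many of the other listed loci did not. Shares among loci that passed it were not computed. Whether the shares given differ was not tested.

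Features without a locus ID were called less often than the tested features as a whole, as a description: 71.1% of 1610 against 80.2%. At least 2-fold higher in osythdf3c were 21.1% of them, and 24.9% were at least 2-fold lower. Among the called features without a locus, 42.7% were higher in osythdf3c with TMM, against 52.4% over all called features. Over all tested features the share called rose with level, from 62.9% under 1 CPM to 96.5% over 256 CPM. The level of the features without a locus was not compared.

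At a minority of features the lines were close, or both without counts, by the TMM fit. The 95% interval of the fold change lay within 1.5-fold in either direction at 6416 features (23.3%). Of these, 3592 passed the test with a small difference and 2824 did not pass it. Library totals gave a similar number, 6159, but shifted the median log2 fold change by 0.36, so which features lie within the limit depends on the scaling. A missed threshold alone was no sign of likeness. Of the 5462 features not called, 2638 had an interval that reached beyond 1.5-fold. A feature with no counts in either line gets a fitted log2 fold change and SE of 0 and falls within the limit. The 6416, and the 2824 of them not called, can include such features, which say nothing on likeness. How many there were was not counted.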

How the data were processed

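RNA was measured in 44 libraries, 6 of which form the contrast. Per the labels' protocols, libraries were paired-end, from fragmented total RNA after a DNase step. Per the submitters' processing notes, HISAT2, featureCounts and the build IRGSP-1.0 were used. Their versions and settings, strand included, were not given in the sources used here, so overlapping, antisense and near-identical genes cannot be told apart. The authors deposited whole-number counts for 58089 features, with no normalization, and FPKM. The deposited FPKM equalled the count divided by the library total and a fixed length in 100% of values, within 0.01 bases of a whole length. Another 40 columns with no sample were not used. Of the IDs, 55801 carry an MSU locus, and 1 was paired with a name through RefSeq (assembly ASM3414082v1). Gene lists and tissue markers planned for this contrast could not be paired with IDs and were not run.

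The deposited counts went into edgeR 4.0.16 (R 4.3.3): TMM, filterByExpr, robust dispersions, 1 fit of the 33 NIP-labelled libraries and the two-sided quasi-likelihood test of osythdf3c minus osythdf3b. A feature was called where its p, adjusted by Benjamini and Hochberg over all features tested, was under 0.05. The biological coefficient of variation was 4.6%. CPM were scaled by library totals, except where scaling by TMM is stated. The standard error is the log2 fold change divided by the square root of F. Floors (3 counts over a group) and ratio intervals cover counting error only. No replicates were collapsed, since replicate pairs of both lines differed by more than counting noise (chi-square per degree of freedom 1.58 to 2.73). The test was first run on simulated counts, with osythdf3c drawn from the osythdf3b means and a small set of features changed. Most features were unchanged there, while most were called in these data. That run therefore cannot speak for the extent or the direction of the differences found here.

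Named loci were the first 2 with a locus ID among the 8 with the largest fitted log2 fold change each way, given a call, at least 5 CPM in the higher line and no overlap of libraries, plus any ID with a name. Features without a locus, the most abundant features and the windows described were singled out after their values were seen. The contrast, its lists and its rules were chosen with earlier results of these data known. Alternatives were library totals, DESeq2 size factors, no filter, DESeq2 1.42.0, the 6 libraries alone, all 44 libraries, the replicate number as a block, limma 3.58.1 on log2 FPKM with 1 or 0.1 added, other limits for on and off, other windows, and each replicate left out.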

Additional observations from a re-analysis of the deposited data

How the results depend on the processing

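Of 183 recomputed values, 174 kept their direction and their side of the threshold or stayed within 1.5 times the reported count, 9 moved and none reversed. Features at least 2-fold lower in osythdf3c numbered 2316 with limma on log2(FPKM + 1) and 3321 on log2(FPKM + 0.1), against 4990 with TMM in edgeR and 3466 with library totals in edgeR. FPKM are scaled by library totals, and the part of the added constant was not separated from that of the test. Those at least 2-fold higher numbered 5644 on log2(FPKM + 1), 8472 on log2(FPKM + 0.1) and 8884 with library totals, against 6763. Intervals within 1.5-fold numbered 14224 with no filter on low counts, where 46730 features were tested. Features with no counts in either line fall within the limit by the SE used. That number is therefore no measure of likeness. Features on in osythdf3c and off in osythdf3b numbered 746 with on at 0.5 CPM, 272 at 2 CPM and 88 with off at 0 counts. The opposite state had 179, 55 and 12 under the same limits. Leaving out each replicate of either line gave 21502 to 21716 calls, 11278 to 11395 higher and 10224 to 10329 lower. It gave 6760 to 6790 at least 2-fold higher, 4967 to 5098 at least 2-fold lower, 6020 to 6094 intervals within 1.5-fold, and 478 to 556 and 88 to 101 features on in 1 line only. Same-numbered replicates did not deviate together (correlations of 0.025, -0.028 and 0.017, scaled by TMM), so no pairing by number was seen at the 10282 features used. Whether the replicates were paired by design is not given. With the replicate number as a block 22082 features were called. DESeq2 called 21717, the 6 libraries alone 21334, all 44 libraries 22464 and no filter 22989. Library totals called 19512 of the 22122 features as well, 565 of them in the opposite direction. None of the settings changed the direction of the 4 loci with an ID or of OsCCC2. The 4 loci were chosen for their large folds, so their direction could hardly change, and their values are among the 183. OsCCC2 had log2 fold changes of 1.23 to 1.89 under the edgeR and DESeq2 settings and 0.59 with limma on log2(FPKM + 1). Depth limits features below about 1 CPM, where few counts stand behind a value.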
